A study of Homo sapiens with 6 samples.

Results

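The respiratory chain and ATP synthase genes of BT-549 cells were compared between adipocyte-conditioned medium (ACM) and unconditioned medium (UCM). Members were the protein-coding genes of GENCODE 44 whose symbols name a numbered NDUFA, NDUFB, NDUFC, NDUFS or NDUFV subunit, SDHA to SDHD, a UQCR subunit or CYC1, a COX4 to COX8 subunit, an ATP5F1, ATP5M or ATP5P subunit, or one of the protein-coding genes of mitochondrial DNA. This gave 102 of the 63140 genes in the files, 89 nuclear and 13 mitochondrial.

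BT-549 is an established human triple negative breast cancer line, and the cells used were labelled wild type. The 3 ACM libraries came from cells kept for 24 h in medium conditioned by differentiating OP9 mouse cells, and the 3 UCM libraries from cells kept as long in unconditioned medium. The labels give the ACM as 50%, whereas the study's supplementary methods describe undiluted ACM for the sequenced cells. OP9 cells conditioned an insulin and oleate medium based on alpha-MEM with little serum. The composition of UCM was not given in the sources used here. Effects of secreted factors, of fatty acid, of insulin, of serum and of base medium therefore cannot be told apart. Cells were grown and lysed in plate wells, with 3 replicates per condition. The replicates are not stated to come from independently started cultures. The p-values then measure only the spread between these libraries, which may be technical.

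Electrons from NADH enter the chain at complex I and electrons from succinate at complex II. Coenzyme Q carries them to complex III, and cytochrome c carries them on to complex IV, which reduces oxygen. Complexes I, III and IV pump protons across the inner membrane, and complex V, the ATP synthase, uses the return flow to make ATP. Complex II is wholly nuclear encoded, whereas each of the others combines nuclear subunits with subunits read from the circular mitochondrial genome. That genome is transcribed from both strands into long precursors that are cut into mRNAs, most of them at the tRNAs between the genes.

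Each library held between 17135288 and 21053257 expected counts, the fractional read counts estimated by RSEM, which were rounded here. The labels call the cells epithelial. The 9 epithelial marker genes summed to between 44 and 62 counts a library, with EPCAM at 2 counts in all 6 libraries together, whereas VIM, a mesenchymal intermediate filament gene, had between 51679 and 63093. The 10 adipocyte markers summed to between 37 and 57 counts in ACM and between 26.04 and 34.03 in UCM. Nearly all of these counts were from 1 gene, CFD, with 50, 37 and 55 in ACM and 30, 25 and 33 in UCM. CFD did not pass the edgeR test described below (adjusted p = 0.196). Of the 10 markers, 5, ADIPOQ included, were at 0 everywhere. Replicate 1 of both conditions stood apart in mitochondrial mRNA, as given with those genes.

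The mitochondrial genes are packed so closely that some share bases, and these shared bases limit what their counts can show. MT-ATP8 and MT-ATP6, subunits of the ATP synthase, share 46 bases at chrM:8527-8572 of GRCh38, and MT-ND4L and MT-ND4, subunits of complex I, share 7 bases at chrM:10760-10766. MT-ATP6 and MT-CO3 share 1 base. Both longer overlaps are shown on the plus strand with 15 flanking bases on each side, and capitals mark the shared bases.
MT-ATP8 and MT-ATP6: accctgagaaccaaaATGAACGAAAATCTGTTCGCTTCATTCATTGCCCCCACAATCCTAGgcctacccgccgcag
MT-ND4L and MT-ND4: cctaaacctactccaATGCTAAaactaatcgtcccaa
In both runs the capitals open with ATG, the start codon of the downstream gene. Each pair is carried on one mRNA. The effective length of MT-ATP8, the number of places where a fragment can start, was under 100 bases, as it was for 7 members in all, and TPM of these genes is imprecise.

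Levels per length are given in TPM, which is scaled by effective length and sums to the same total in every library, as a mean over the 6 libraries. Mitochondrial mRNAs were the most abundant members, with a median of 4055 TPM (n = 13) against 203 TPM for the tested nuclear members (n = 83) and 15.5 TPM for all tested genes. They ranged from 1312 TPM for MT-ND5 to 10801 TPM for MT-CO2, an oxidase core subunit that accepts electrons from cytochrome c. Of the 83 nuclear members, 61 exceeded 100 TPM.

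In complex I the highest nuclear levels were 749 ± 24.8 TPM for NDUFS5, 519 ± 15.9 for NDUFA1 and 465 ± 38.7 for NDUFA13 (SD, n = 6), of which NDUFS5 was above the others by more than their spread, and NDUFA13 did not differ beyond its spread from NDUFB2 at 449 ± 38.1. The lowest were the read-through gene NDUFC2-KCTD14 at 2.40 ± 1.64, NDUFV3 at 7.34 ± 0.91 and NDUFA5 at 37.7 ± 3.79. Within complex II, SDHB, an iron-sulphur subunit, stood at 202 ± 14.7 TPM and SDHA, the flavoprotein, at 186 ± 11.7. SDHB was above SDHA in every library. SDHC and SDHD, the membrane anchors, were lower, at 139 ± 12.2 and 109 ± 10.9.

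In complex III, UQCRH at 656 ± 18.5 TPM and CYC1, cytochrome c1, at 639 ± 63.3 did not differ beyond their spread, and UQCRQ followed at 415 ± 30.2. UQCRHL, a near copy of UQCRH whose reads RSEM has to divide, stood lowest at 35.0 ± 14.97, below UQCRFS1 at 67.8 ± 6.34 and UQCR11 at 70.2 ± 4.74. In complex IV the order was COX8A at 911 ± 43.7, COX4I1 at 638 ± 8.73 and COX7C at 565 ± 22.3, the last level with COX6B1 at 564 ± 37.1, and the lowest tested were NDUFA4L2 at 1.21 ± 0.36, COX7A1 at 27.6 ± 8.38 and COX7B at 44.2 ± 8.90. In complex V, ATP5MF led at 1194 ± 108, ahead of ATP5MK at 634 ± 53.3 and ATP5F1B, the catalytic beta subunit, at 622 ± 54.3, which did not differ beyond their spread. ATP5MF-PTCD1, a read-through, was lowest at 12.9 ± 1.24, under ATP5F1E at 43.2 ± 3.78 and ATP5MJ at 122 ± 17.6.

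**Figure D1:**
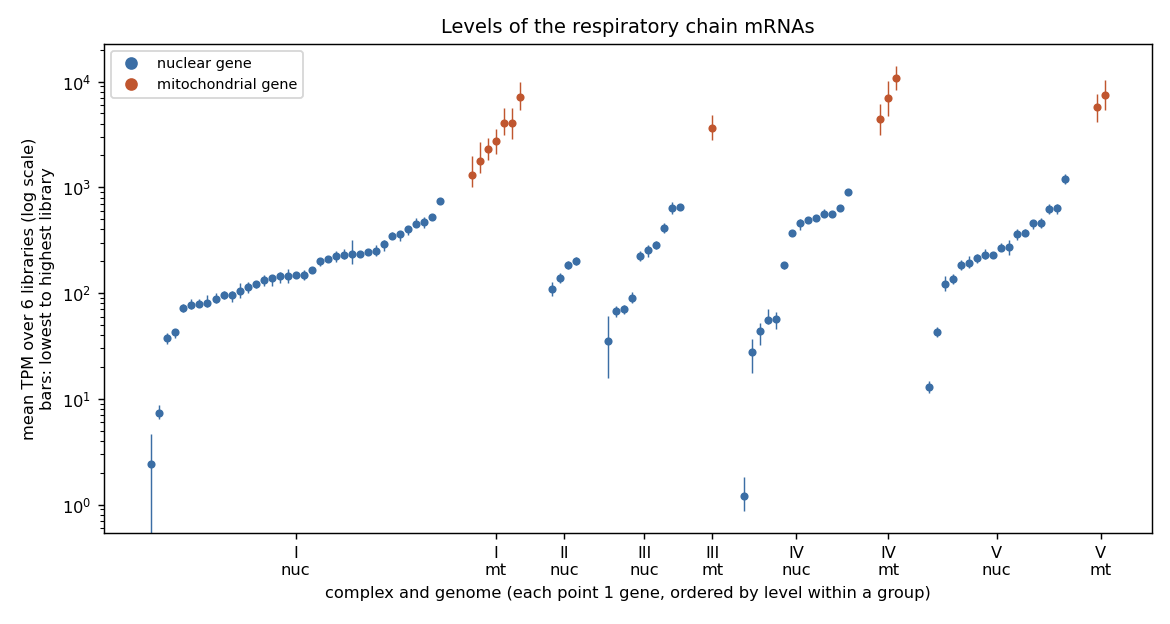
Mean TPM over 6 libraries of each tested member on a log axis, by complex and genome, with bars from the lowest to the highest library. Mitochondrial genes (1312 to 10801 TPM) lie above every nuclear gene (1.21 to 1194 TPM), and the bar of NDUFC2-KCTD14 runs down to a library at 0, off the axis.

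In all, 6 members could not be tested. COX4I2, COX7B2, COX8C and ATP5MGL had 0 counts in all libraries, COX6A2 had 1 count in all, and COX6B2 had between 1 and 4 a library. All but ATP5MGL are oxidase isoforms known from other tissues. The isoforms that most cells use were abundant and close to level between the media. CPM here are counts scaled to a library total adjusted by a TMM factor, as given with the processing. COX4I1 measured 210, 218 and 203 CPM in ACM and 204, 212 and 210 in UCM. Its log2 fold change, ACM against UCM, was 0.01 ± 0.06 (SE). COX6A1 stood at 0.02, COX7A2 at -0.08, its relative COX7A2L, a supercomplex factor, at 0.13, and COX8A at 0.07. None of these 5 passed the test.

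No respiratory chain gene passed the test between ACM and UCM. At an adjusted p of 0.05 or less (edgeR's quasi-likelihood test, Benjamini-Hochberg adjustment over 14451 genes), 0 of 96 tested members were higher and 0 were lower, where 3.35% of all tested genes were higher and 2.21% lower. The smallest adjusted p was 0.067. At an unadjusted p of 0.05 or less, 1 nuclear member was higher and 11 were lower, where 11.9% and 11.5% of all genes were. DESeq2 called 0 members higher and 1 lower, ATP5PB, where it called 5.73% and 3.35% of all genes to which it gave an adjusted p.

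The log2 fold changes of nuclear members were narrowly bounded. For 80 of the 83 the 95% interval of the log2 fold change lay within 0.58 of 0, the log2 threshold of the study, and those intervals reached from -0.47 to 0.49. Of all 14451 genes, 8896 had an interval that narrow. The exceptions were NDUFC2-KCTD14, COX7A1 and NDUFA4L2, which are scarce mRNAs. Only 1 of the 13 mitochondrial members had such an interval.

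Nuclear members were lower more often than higher in ACM, by small amounts. Their median log2 fold change was -0.08 (29 above 0, 54 below), beside -0.011 for all tested genes (6954 above 0, 7497 below). The median standard error of the nuclear members was 0.083. All 3 ACM libraries lay below all 3 UCM libraries in 13 of 83 nuclear members and above them in 1, where 15.1% and 13.9% of all tested genes did so. By complex the medians were -0.02 in complex I (n = 37), -0.12 in II (n = 4), -0.05 in III (n = 10), 0.0080 in IV (n = 14) and -0.13 in V (n = 18). Other sets of protein complex genes were at similar medians. The 78 mitochondrial ribosomal protein genes stood at -0.13 (9 above 0, 69 below), with 0 called higher and 2 lower. The 83 tested cytosolic ribosomal protein genes stood at -0.07 (15 above 0, 68 below), with 0 called higher and 3 lower. In bulk RNA from whole wells, a lower level in every cell and fewer cells carrying an mRNA cannot be told apart.

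**Figure D2:**
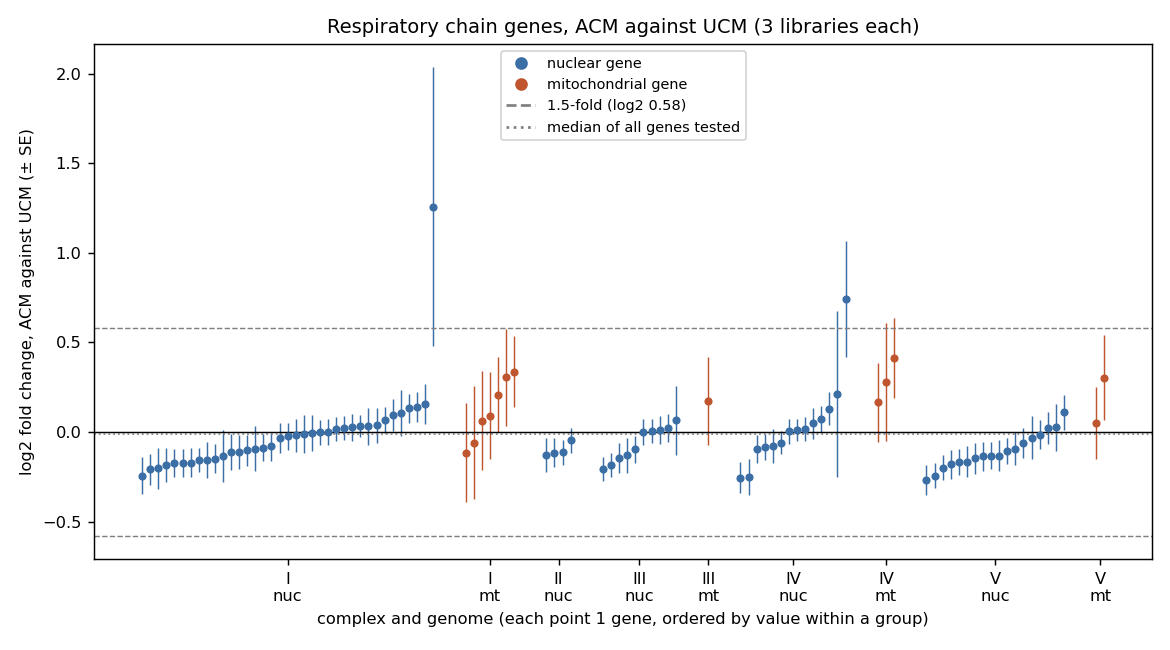
Log2 fold change, ACM against UCM, of each tested member with its standard error, by complex and by nuclear (nuc) or mitochondrial (mt) genome. Of 83 nuclear genes 54 lie below 0, each by at most 0.27, and the mitochondrial genes have wider errors; the 2 highest points are NDUFC2-KCTD14 and COX7A1.

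The ATP synthase had the lowest nuclear median, with 15 of 18 tested members below 0. ATP5PB, the b subunit of the peripheral stalk, measured 176, 170 and 186 CPM in ACM against 197, 217 and 215 in UCM. The groups did not overlap, and the log2 fold change was -0.24 ± 0.068 (SE, adjusted p = 0.067). ATP5MJ, a small membrane subunit, measured 25.7, 26.5 and 25.6 CPM in ACM against 30.8, 32.7 and 30.0 in UCM. These groups were also apart, at -0.27 ± 0.085 (adjusted p = 0.095).

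The c-ring of the synthase is built from 1 mature protein that is encoded by 3 genes. ATP5MC1 was at -0.20 (46.7, 46.4 and 49.0 CPM in ACM against 53.7, 54.9 and 54.6 in UCM, adjusted p = 0.128), with the groups apart. ATP5MC3 was at -0.15 and ATP5MC2 at -0.06, and neither passed the test. Summed over the 19 nuclear complex V genes, ACM libraries held 2166, 2168 and 2302 CPM and UCM libraries 2229, 2512 and 2505. The groups overlapped, because UCM replicate 1 lay among the ACM libraries.

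In complex IV, NDUFA4, first named as a complex I protein and now counted as an oxidase subunit, measured 66.5, 62.6 and 55.4 CPM in ACM against 71.9, 78.8 and 69.7 in UCM (log2 fold change -0.26 ± 0.087, adjusted p = 0.112). COX7B, a small oxidase subunit, stood at -0.25 ± 0.10 (adjusted p = 0.162). The groups were apart in both genes. NDUFA4L2, the paralogue of NDUFA4, was nearly silent and measured 0.21 ± 0.46.

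COX7A1, the isoform known from heart and skeletal muscle, was the only member above UCM in every ACM library. Its counts were 33, 29 and 33 in ACM against 17, 20 and 19 in UCM, which gave 0.74 ± 0.32 on the log2 scale (adjusted p = 0.198). The effective length of COX7A1 was under 100 bases, and its level in TPM is therefore imprecise.

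In complex III, UQCRFS1, the Rieske iron-sulphur protein, measured 124, 122 and 127 CPM in ACM against 133, 150 and 146 in UCM, at -0.21 ± 0.068 (adjusted p = 0.106). UQCRB, a subunit near the quinone site, was at -0.19 (adjusted p = 0.13) with 135, 122 and 135 CPM against 146, 152 and 147. Both pairs of groups were apart. CYC1 was at -0.14 and passed no test. In complex II all 4 subunits were below 0, SDHD at -0.13, SDHC at -0.12, SDHB at -0.11 and SDHA at -0.05, and none passed.

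Complex I held both signs. Its 7 nuclear core subunits, which carry the flavin and the iron-sulphur clusters, had a median of 0.018, and its 29 accessory subunits one of -0.08. NDUFS4, an accessory subunit near the NADH-oxidising arm, was at -0.24 (27.9, 25.1 and 26.4 CPM in ACM against 27.9, 34.7 and 31.4 in UCM, adjusted p = 0.185), with both replicate 1 libraries all but equal. NDUFS3, a core subunit, was at -0.21 (adjusted p = 0.182). NDUFC2-KCTD14 had the highest log2 fold change of all members, 1.26 ± 0.78 (adjusted p = 0.377), on 9, 22.6 and 18 counts in ACM against 10.9, 0 and 10.1 in UCM. Its groups overlapped, and it shares exons with NDUFC2.

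The promoters of the nuclear members were searched for motifs that respiratory chain promoters are known for. RefSeq held a promoter (GRCh38.p14, 250 bases before to 50 after the start) for 69 of the 89 nuclear members, and for 27305 genes in all. On either strand, the NRF1 motif was in 24.6% of the members, in 6.98% of all genes and in 13.6% of the 10055 protein-coding genes tested here. CCGGAAG, an ETS motif bound by GABP, was in 30.4%, 12.2% and 23.0%. AAGATGGC, the YY1 motif, was in 17.4%, 3.52% and 6.56%, and TCGCGAGA was in 7.25%, 1.37% and 2.96%. GGGCGG, the SP1 motif, was in 63.8% of the members, 48.3% of all genes and 78.6% of the tested genes.

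Tested members with an NRF1 match had a median log2 fold change of -0.13 (n = 16) and those without one of -0.02 (n = 49). For the ETS motif the medians were 0.0017 (n = 21) and -0.09 (n = 44), and for the SP1 motif -0.02 (n = 43) and -0.11 (n = 22). The YY1 motif gave -0.06 with a match (n = 12) and -0.06 without (n = 53), and TCGCGAGA gave -0.18 (n = 5) and -0.05 (n = 60). A match is a run of letters, and occupancy was not measured. Matches of these motifs other than SP1 that lie before the start are shown for the 5 nuclear members with the lowest log2 fold changes, with up to 25 flanking bases on the coding strand and with the match in capitals. NDUFA4 had no promoter entry. NDUFS4 and ATP5PB each had a YY1 match that reached past the start and is not shown. ATP5PB had TCGCGAGA matches at 3 places before its start, in chr1:111449271-111449330, chr1:111449354-111449411 and chr1:111449417-111449463 on the plus strand. At the farthest and the nearest place the motif matched on both strands, offset and overlapping, and at the middle one only on the strand opposite to the gene.
ATP5PB, farthest: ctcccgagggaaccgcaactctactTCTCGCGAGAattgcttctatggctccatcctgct
ATP5PB, middle: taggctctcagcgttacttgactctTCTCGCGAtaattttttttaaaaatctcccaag
ATP5PB, nearest: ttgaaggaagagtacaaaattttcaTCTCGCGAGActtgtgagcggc
COX7B (chrX:77899393-77899450, plus strand): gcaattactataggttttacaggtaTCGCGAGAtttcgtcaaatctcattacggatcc
ATP5MJ, NRF1 motif (chr14:103921530-103921571, minus strand): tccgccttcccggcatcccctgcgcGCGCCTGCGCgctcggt
The ATP5PB matches begin 168, 85 and 22 bases before the start, that of COX7B 50 and that of ATP5MJ 17. These genes were chosen after their values were seen.

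Libraries of one medium differed more in mitochondrial mRNA than the means of the media did. Their share of all counts was 3.01%, 2.27% and 1.91% for ACM (replicates 1, 2 and 3) against 2.89%, 1.67% and 1.72% for UCM, or 2.40% ± 0.562 against 2.10% ± 0.693 (SD, n = 3 each). Replicate 1 was the highest of both conditions, and the groups overlapped. The nuclear members took 0.727%, 0.710% and 0.749% in ACM and 0.724%, 0.807% and 0.792% in UCM, and UCM replicate 1 was here the lowest of its group.

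MT-CO1, the catalytic subunit of complex IV, measured 9033, 6273 and 5185 CPM in ACM against 8194, 4256 and 4437 in UCM. ACM replicates 2 and 3 lay above UCM replicates 2 and 3, and UCM replicate 1 lay above both. All 13 genes overlapped between the groups, and 11 had a log2 fold change above 0, with a median of 0.17 and standard errors from 0.20 to 0.33. The highest was MT-CO3, an oxidase subunit without redox centres, at 0.41 (2179, 1776 and 1394 CPM in ACM against 1729, 1123 and 1164 in UCM, adjusted p = 0.335).

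The other genes of complex IV, MT-CO1 and MT-CO2, were at 0.28 and 0.17, and MT-CYB, the cytochrome b of complex III, was at 0.17. In complex V, MT-ATP6, part of the proton channel, was at 0.30 and MT-ATP8 at 0.05. The 7 complex I genes, which encode the membrane arm, ran from MT-ND2 at 0.34, MT-ND3 at 0.31 and MT-ND1 at 0.21 over MT-ND4L at 0.09 and MT-ND4 at 0.06 to MT-ND5 at -0.06 and MT-ND6 at -0.11. Of these 13, none passed the test.

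**Figure D3:**
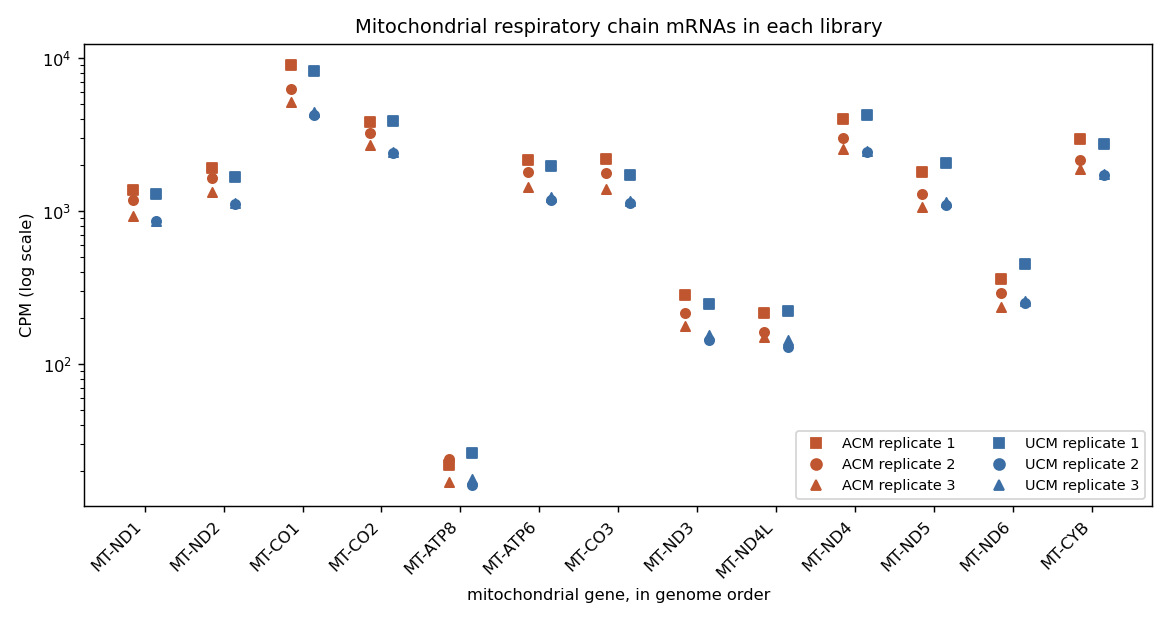
CPM of the 13 mitochondrial genes in each of the 6 libraries on a log axis, in genome order, with colours for the medium and symbols for the replicate. Replicate 1 (squares) is the highest library of its medium in 12 of 13 genes in ACM and 13 of 13 in UCM.

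Calls among the members changed without replicate 1. Without replicate 1 of both conditions, a comparison added after the data had been seen and chosen on the mitochondrial share itself, 7 mitochondrial genes were higher in ACM, where 7.07% of 14393 tested genes were. These were MT-ND2, MT-ND3, MT-CYB, MT-CO1, MT-CO2, MT-CO3 and MT-ATP6, from 0.24 to 0.48 on the log2 scale. In the same comparison 8 nuclear members were lower, where 5.04% of the tested genes were. They were ATP5PB at -0.27, ATP5MG at -0.28, NDUFA4 at -0.32, NDUFS4 at -0.35, NDUFS3 at -0.27, NDUFB4 at -0.26, NDUFB9 at -0.25 and UQCRFS1 at -0.24. Without UCM replicate 1 alone, MT-ND2 was called higher and ATP5PB, NDUFS3 and UQCRFS1 were called lower, where 5.03% and 3.90% of all tested genes were, and the mitochondrial median was 0.44. Without ACM replicate 1 alone it was 0.030. Without UCM replicate 2 or UCM replicate 3 it was 0.052 or 0.070.

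The make-up of the mitochondrial mRNA separated the media at 5 of the 13 genes, although its total overlapped. None of these 5 differences passed the permutation test given below. In CPM, a different measure, 13.9% of all tested genes had every ACM library above every UCM library. Another 15.1% had every ACM library below. Each gene was expressed as a share of the summed counts of all 13, which takes the library's total out. MT-ND6 took 1.19%, 1.26% and 1.23% in ACM against 1.56%, 1.51% and 1.499% in UCM, or 80.7% of the UCM share. MT-ND5 took 5.96%, 5.59% and 5.56% against 7.20%, 6.61% and 6.67%, or 83.6%. MT-ND4 took 13.3%, 13.1% and 13.4% against 14.9%, 14.5% and 14.3%, or 90.9%. For these neighbouring complex I genes, every ACM library lay below every UCM library, replicate 1 included.

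The shares of MT-CO3 and MT-ND3, neighbours upstream of them, were higher in ACM. MT-CO3 took 7.23%, 7.70% and 7.31% against 6.01%, 6.72% and 6.78%, or 114% of the UCM share. MT-ND3 took 0.937%, 0.934% and 0.927% against 0.864%, 0.858% and 0.896%, or 107%. The other 8 genes overlapped. Each of the 5 differences had an exact two-sided permutation p of 0.1, the smallest that 3 against 3 libraries allow, and 0.26 after Benjamini-Hochberg adjustment over the 13 genes. The groups of these 5 genes were also apart in shares of summed TPM, which come from the same counts and add no separate support. In those shares MT-ATP6, higher, and MT-ND4L, lower, were apart as well.

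In the order of the mitochondrial genome these 5 genes lie in a single run that only MT-ND4L interrupts, with MT-CO3 at chrM:9207-9990, MT-ND3 at chrM:10059-10404, MT-ND4 at chrM:10760-12137, MT-ND5 at chrM:12337-14148 and MT-ND6 at chrM:14149-14673. MT-CYB, the next gene at chrM:14747-15887, was at 97.0% of the UCM share, with the groups overlapping. MT-ND6 is the one mitochondrial protein gene read from the other strand. Whether the kit and the counting kept strand was not given in the sources used here, and without it the reads of MT-ND6 and of the RNA opposite to it cannot be told apart. A share of a fixed total also falls when another share rises, so that the shares cannot tell which gene's level differed.

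**Figure D4:**
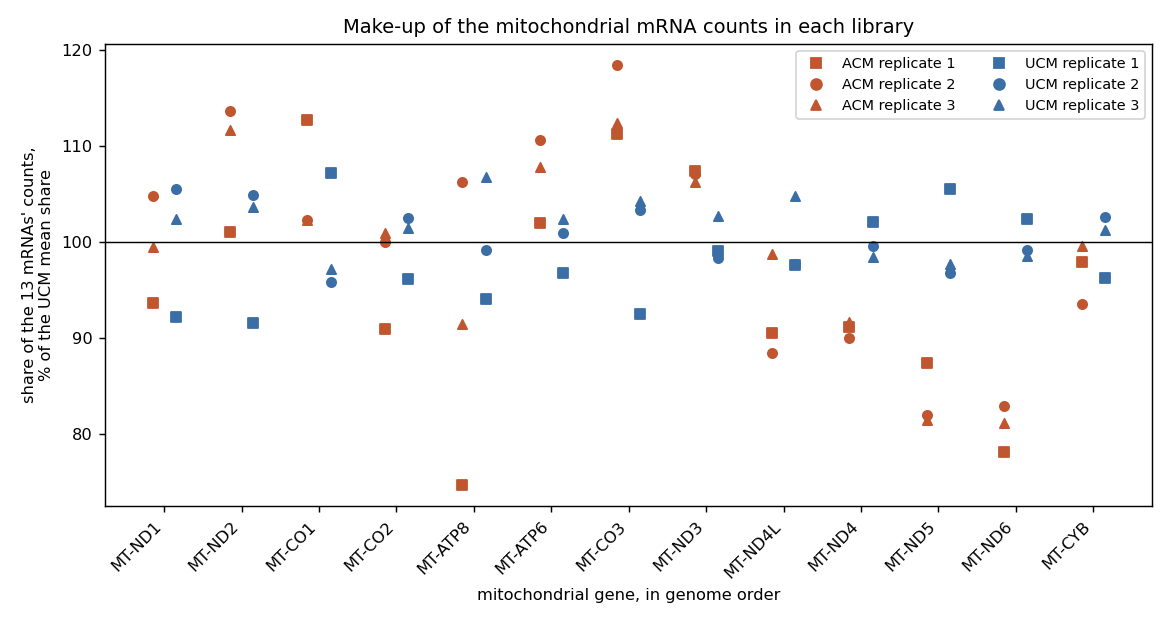
Share of each mitochondrial gene in the summed counts of the 13 genes, as a percentage of the mean UCM share, in genome order and for each library. All 3 ACM libraries lie below all UCM libraries at MT-ND4, MT-ND5 and MT-ND6 and above them at MT-CO3 and MT-ND3, including the replicate 1 libraries (squares).

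Reads of mitochondrial genes can also go to their copies in nuclear DNA. Of 404 annotated nuclear copies, 24 had a count. Their sum was 3955, 2627 and 2197 in the ACM libraries against 3506, 1827 and 1760 in the UCM libraries, nearly all at MTATP6P1 and MTCO1P12, and had replicate 1 highest in both media, as the mitochondrial genes had. Counts of MT-ATP6 and MT-CO1 are uncertain to that extent.

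Genes that serve the chain but lie outside the rule for members were counted from lists. They are to be read against the 3.35% of all tested genes called higher and the 2.21% called lower. NDUFAB1, whose symbol the rule does not match, was counted with the carriers. It had a log2 fold change of -0.12 and did not pass. Of 18 complex I assembly factors 1 was lower in ACM, TMEM126B of the membrane arm assembly complex (list median -0.15). It measured 22.8, 25.1 and 20.9 CPM in ACM against 31.7, 29.5 and 29.2 in UCM (log2 fold change -0.40, adjusted p = 0.044). Of the 18, 1 was higher and 6 lower at an unadjusted p of 0.05 or less, where 11.9% and 11.5% of all tested genes were. No gene passed among 10 assembly factors of complexes II and III (median -0.06) or 23 of complex IV (-0.12). None passed among 5 assembly and inhibitor genes of complex V (-0.09). Of 10 carriers and supercomplex factors, CYCS, which encodes cytochrome c, was lower, with 202, 203 and 222 CPM in ACM against 241, 265 and 263 in UCM (-0.29, adjusted p = 0.040). SQOR, which passes electrons from hydrogen sulphide to coenzyme Q, was higher, with 10.3, 23.5 and 16.2 CPM against 6.40, 8.01 and 6.12 (1.28, adjusted p = 0.047).

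Of 13 coenzyme Q synthesis genes, COQ8A, an atypical kinase of that pathway, was higher, with 19.8, 21.0 and 20.1 CPM in ACM against 13.1, 12.5 and 13.5 in UCM (0.64, adjusted p = 0.0082). Of the 8 tested of 11 transcriptional regulators, GABPB1, the partner of the ETS factor GABPA, was lower, with 15.4, 14.6 and 15.9 CPM against 21.5, 21.3 and 22.6 (-0.51, adjusted p = 0.018). The 3 ACM libraries lay on one side of the 3 UCM libraries in each of these 5 genes. They were named because they passed the test on the same libraries, so this separation adds no support. Of all tested genes, 13.9% had the ACM libraries all above and 15.1% all below. Among 14 genes of mitochondrial DNA transcription and replication (median -0.05) and 19 of mitochondrial RNA processing and stability (median -0.13), 0 passed in either direction with edgeR. At an unadjusted p of 0.05 or less, 1 and 2 of the former were higher and lower, and 0 and 6 of the latter, where 11.9% and 11.5% of all tested genes were. Each of the 5 calls was lost under some of the 16 alternatives, GABPB1 being called in 10, SQOR in 9, COQ8A in 13, TMEM126B in 7 and CYCS in 10.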

How the data were processed

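By the submitters' notes, polyA-enriched libraries were read in pairs and processed with Trim Galore, STAR (build GRCh38) and RSEM. Tool versions and the annotation are not given in the sources used here. Per gene, the authors deposited an expected count from RSEM, not scaled for depth, a TPM value, scaled by length and library sum, and an effective length, an abundance-weighted mean over transcripts. A deposited table of the authors' DESeq2 fold changes and p-values was not used.

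Identifiers of 62541 of 63140 genes matched GENCODE 44 regardless of version, including all 102 members. Expected counts were rounded, filtered with filterByExpr (14451 genes kept) and tested by edgeR 4.0.16 under R 4.3.3 (TMM, robust quasi-likelihood fit, condition only). CPM are counts scaled to the library's total over the genes kept, adjusted by its TMM factor. The biological coefficient of variation was 0.115. The scripts were tested on simulated data. DESeq2 1.42.0, limma 3.58.1 on log2(TPM + 1) and log2(TPM + 0.1), other scalings and filters, a replicate block and leaving out libraries were alternatives. Exact permutation tests used scipy 1.17.1.

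Members and lists were chosen with earlier results of these data known. Named genes were the 13 mitochondrial members, the 3 nuclear members of each complex with the largest absolute log2 fold change, paralogue sets, the 3 highest and 3 lowest nuclear levels of each complex, and up to 3 called genes of each list. Others named were chosen after their values were seen.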

Additional observations from a re-analysis of the deposited data

How the results depend on the processing

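Across 16 alternatives the medians of both genomes kept their sign. Leaving out single libraries moved the nuclear median between -0.098 and -0.034 and the mitochondrial median between 0.030 and 0.44. The count of members called higher, 0 at first, was 1 with limma on log2(TPM + 1) and on log2(TPM + 0.1) (COX7A1), where 1.59% and 1.62% of all genes were, and from 0 to 1 without single libraries, where 0.846% to 5.03% were. The count called lower, also 0, was 1 in both limma comparisons (ATP5MJ, background 0.913% and 0.955%), 1 with DESeq2 (3.35%) and 1 with a filter of at least 1 count (2.66%), both ATP5PB, and from 0 to 3 without single libraries (0.420% to 3.90%). Without replicate 1 of both conditions the counts were 7 and 8. MT-ND5 and MT-ND6 changed sign without single libraries, from -0.29 to 0.31 and from -0.27 to 0.22. The cause was not tested. A change of sign was not counted where both values were smaller than their standard errors.

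Same-numbered libraries of the 2 media deviated together with correlations of 0.32, 0.035 and 0.18 across genes. ACM replicate 3 correlated best with UCM replicate 2 (0.20), so the numbers were not taken as pairs. The 0.32 of the replicate 1 libraries was the highest of all pairings, and whether those 2 libraries form a pair was not tested. With the replicate number as a block, 5 members were higher (MT-ATP6, MT-CO1, MT-CO3, MT-ND2 and MT-ND3), where 6.29% of all genes were, and 2 lower (ATP5PB and NDUFA4), where 4.86% were. With the block and scaling factors without mitochondrial genes, chosen after the data had been seen, the counts were 4 and 2.

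Scarce mRNAs (NDUFC2-KCTD14, COX7A1 and NDUFA4L2) and the spread of replicate 1 limit what 3 libraries a medium can show.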
